A study of Mus musculus with 6 samples.

Results

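The genes described here are 10 genes of glutathione synthesis and of the NRF2 response: the transcription factor gene Nfe2l2 (which encodes NRF2), its inhibitor Keap1, the glutathione enzyme genes Gclc, Gclm, Gss and Gsr, the thioredoxin and sulfiredoxin enzyme genes Txnrd1 and Srxn1, and the stress enzyme genes Hmox1 and Nqo1. They were taken by gene name from the 34745 gene rows of the count tables, and each of the 10 names had 1 row in every library. The study asked what the protein KIAA1522 does in lung cancer cells and how it bears on their response to cisplatin. RNA was sequenced from 889 cells, the murine lung cancer line 889-DTC, which the labels place in C57BL/6 mouse lung. The control group sg-con held 3 libraries of cells with Cas9 and an sgRNA against EGFP, and the group sg-kiaa1522 held 3 libraries of cells with Cas9 and an sgRNA against the mouse kiaa1522 gene, a treatment that the labels call downregulation of KIAA1522. Cas9 and the sgRNA came from a lentiviral vector in both groups, and transduced cells were kept by puromycin or by sorting, so each group is a transduced population of 1 cell line. Which of the study's sgRNAs the sequenced cells carried is not given in the sources used here, and the labels do not say whether the 3 libraries of a group came from separate cultures, so the p-values measure the spread between these libraries, which may be technical.

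Library totals ran from 12220001 to 18609376 counts, and 10046 genes, those whose 6 counts summed to over 500, were tested with edgeR's quasi-likelihood test. The kiaa1522 gene itself, C77080 in the mouse (chr4:129219578-129261404 on GRCm38, ENSMUSG00000050390), was at 127, 129.7 and 124 CPM (counts per 1000000 counts of the library, with the library size scaled by edgeR's TMM factor) in the sg-con libraries and at 210.4, 203 and 216 CPM in the sg-kiaa1522 libraries. Its transcript was thus higher where the labels say the gene was targeted, with a log2 fold change of 0.73 (SE 0.0569, adjusted p = 9.1e-05, edgeR). Every direction below is therefore that of the libraries labelled sg-kiaa1522 against those labelled sg-con, and the counts cannot show how much KIAA1522 protein the cells held. Of the 10 epithelial markers, 4 reached 1 CPM (Krt8, Krt18, Krt19 and Cdh1), while Epcam, Cldn3, Cldn4, Cldn7, Krt7 and Esrp1 had at most 3 counts in any library. The summed epithelial level was 3811 to 4575 CPM in sg-con and 3218 to 3498 CPM in sg-kiaa1522, and the summed lung epithelial level, with 7 of 10 markers at 1 CPM or more, was 46.4 to 102 CPM and 28.3 to 64.4 CPM. Cdh1 was at 52.1 to 61.8 CPM and 19.3 to 21.3 CPM. Krt8 was at 1138 to 1393 CPM and 935 to 1002 CPM, and Krt19 at 673 to 869.7 CPM and 453 to 521 CPM. Krt18 overlapped, at 1947 to 2250.2 CPM and 1809 to 1953 CPM. In the lung epithelial list, Sftpb was lower, at 17.0 to 24.0 CPM and 12.3 to 15.6 CPM. Napsa was also lower, at 0.971 to 1.26 CPM and 0.0824 to 0.273 CPM. Ager was higher, at 1.35 to 2.64 CPM and 2.89 to 3.30 CPM. The groups overlapped for Nkx2-1, Sftpa1, Sftpc and Scgb1a1. The 10 fibroblast markers summed to 4561 to 4794 CPM and 4795 to 5245 CPM, nearly all of it Vim, with 4 of the 10 at 1 CPM or more. Vim was at 4095 to 4324 CPM and 4628 to 5064 CPM, while the other 3 were lower in every sg-kiaa1522 library, Col1a2 at 419 to 433 CPM and 143 to 162 CPM, Pdgfrb at 41.7 to 44.4 CPM and 21.6 to 34.1 CPM, and Col1a1 at 6.03 to 8.22 CPM and 1.58 to 2.00 CPM. The immune markers, 3 of 10 at 1 CPM or more, summed to 20.8 to 22.5 CPM and 41.6 to 48.5 CPM, with Adgre1, Cd3e, Cd4 and Cd8a at 0. Cd14 was at 15.7 to 18.7 CPM and 30.6 to 35.1 CPM, Cd68 at 1.14 to 1.24 CPM and 10.1 to 12.8 CPM, and Lyz2 at 0.971 to 3.62 CPM and 0.906 to 0.942 CPM, while Ptprc was under 1 CPM in every library. The endothelial markers, 2 of 8 at 1 CPM or more, summed to 3.72 to 5.80 CPM and 9.48 to 11.8 CPM, with Emcn at 0. Vwf, most of the sum in sg-kiaa1522, was at 2.40 to 3.79 CPM and 8.48 to 10.5 CPM. Pecam1 overlapped, at 0.539 to 0.861 CPM and 0.659 to 1.15 CPM. The groups' sums overlapped for the lung epithelial list and did not for the other 4 lists, and the part of these lists in the results below was not tested. In RNA from whole cultures, fewer cells of a kind and less RNA per cell cannot be told apart.

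NRF2 is a leucine zipper transcription factor that KEAP1 holds in the cytoplasm and presents to a ubiquitin ligase for degradation. Oxidants and electrophiles modify KEAP1, NRF2 then accumulates, pairs with a small MAF protein and binds antioxidant response elements, short DNA motifs near genes of glutathione synthesis, thioredoxin reduction, quinone reduction and haem breakdown. NRF2 is regulated mostly through its protein, so the amount of Nfe2l2 transcript is only part of the factor's level. The pathway is often altered in lung cancer, and glutathione can bind platinum drugs.

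The core of the antioxidant response element was searched for in the RefSeq promoter windows of these genes (GRCm38.p6, 250 bases before to 50 after each start) as the letters TGACNNNGC and, on the opposite strand, GCNNNGTCA. The first 4 letters are also those of the AP-1 motif TGACTCA, so the 2 motifs can overlap. Entries were found for 7 of the 10 genes: Nfe2l2, Keap1, Nqo1, Gclm, Gss, Txnrd1 and Srxn1, with 9 windows in all. The core was present in 4 of the 9 windows, against 4063 of all 32817 windows of that length (12.4%). By gene it was present in 4 of 7, against 14% of all genes with a window. The genes were picked for this pathway, so a share above that of all windows is not a result of these libraries. The matches are shown because they lie in 3 genes that rose and 1 that did not pass the test. Gclc and Hmox1, which also rose, had no entry. Capitals mark the core, each line reads 5′ to 3′ along the gene's own strand, and the position is that of the first capital.
Nfe2l2, 240 bases before the start, minus strand, chr2:75704885-75704913: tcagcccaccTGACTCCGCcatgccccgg
Gclm, 134 bases before the start, plus strand, chr3:122245413-122245441: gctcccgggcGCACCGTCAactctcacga
Txnrd1, 92 bases before the start of 1 of its 3 windows, plus strand, chr10:82859104-82859132: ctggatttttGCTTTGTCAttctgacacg
Srxn1, at base 29 counted from the start, plus strand, chr2:152105542-152105570: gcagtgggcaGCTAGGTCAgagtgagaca
Only the Nfe2l2 core reads in the sense direction, and the other 3 are the reverse letters. The windows of Keap1, Nqo1 and Gss did not hold these letters. A match describes the sequence and does not show that a factor binds there.

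Of the 10 genes, 9 passed the filter on counts. Of these, 5 were higher in the sg-kiaa1522 libraries at an adjusted p of at most 0.05 (Nfe2l2, Gclc, Txnrd1, Srxn1 and Hmox1). Of all tested genes, 26.3% were higher by that rule, 26.3% were lower and 52.5% were called in either direction, so a call by itself was common in these data. None of the 9 genes was lower by the same edgeR test, where 1 of them (Gsr) had an unadjusted p under 0.05 and a lower level. DESeq2 and edgeR's likelihood ratio test also gave 0 lower genes, and DESeq2 gave 0 at an unadjusted p under 0.05. With the added limit of the study's methods, a 2-fold change (a log2 of 1 or more, up or down), edgeR called 0 of the 9 (and 0 at an unadjusted p under 0.05), as did DESeq2 and the likelihood ratio test, against 7.08% of all tested genes. At a smaller limit of 1.5-fold, 2 of the 9 passed (Gclc and Hmox1), against 22.9% of all tested genes. Hmox1 was under that limit without replicate 1 of sg-con (log2 fold change 0.56), which left 1 gene. The CPM of the groups did not overlap for 6 of the 9 (the 5 that rose, and Gsr below), against 61.7% of all tested genes. The median log2 fold change of the 9 was 0.35, and that of all tested genes was -0.0067. For any single gene the exact permutation test of 3 libraries against 3 cannot go below p = 0.1, so the calls rest on the fit across all genes.

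**Figure D1:**
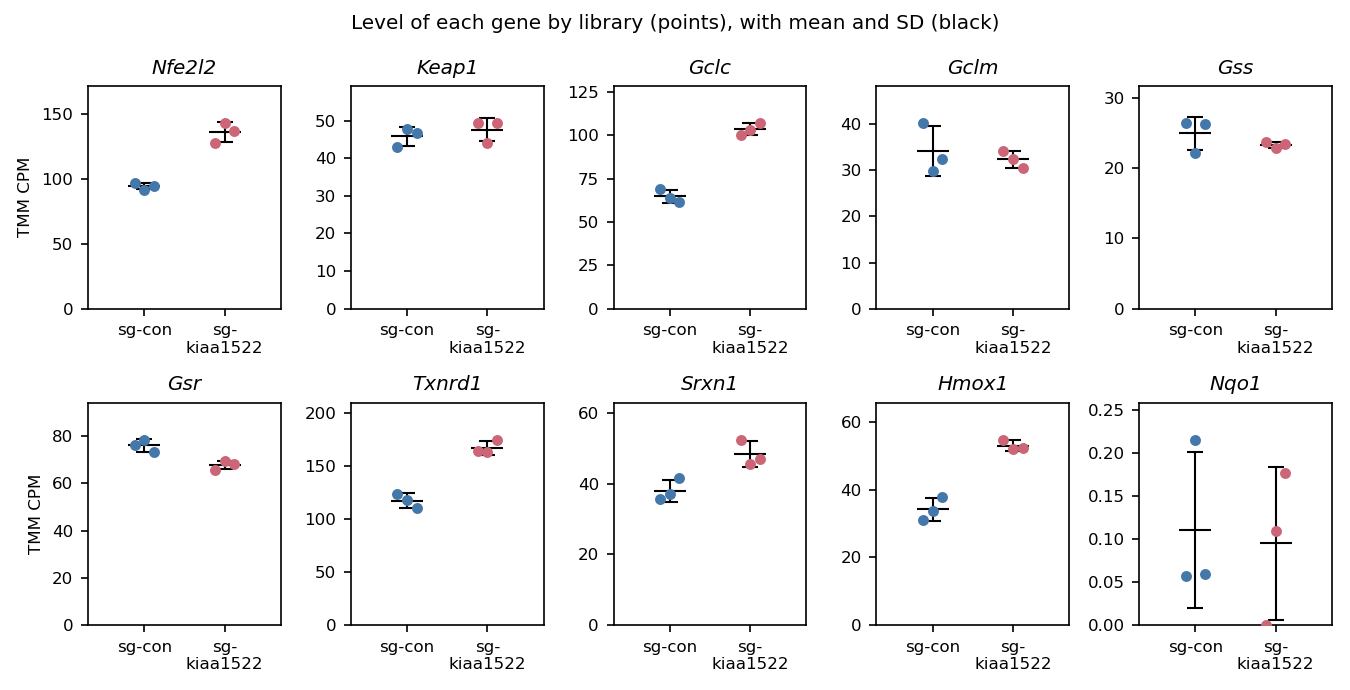
TMM CPM (y axis of each panel, from 0) of the 10 genes in the 3 sg-con (blue) and 3 sg-kiaa1522 (red) libraries, with the mean and SD in black. The red points of Nfe2l2, Gclc, Txnrd1, Srxn1 and Hmox1 all lie above the blue ones, those of Gsr all lie below, and the groups overlap for Keap1, Gclm, Gss and Nqo1, the last with at most 0.216 CPM.

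The gene of the transcription factor rose, and that of its inhibitor did not pass the test. Nfe2l2 (ENSMUSG00000015839, chr2:75675513-75704641) was at 96.9, 91.7 and 94.7 CPM in sg-con and at 128, 143 and 137 CPM in sg-kiaa1522. All sg-kiaa1522 libraries lay above all sg-con libraries. The log2 fold change was 0.53 (95% interval 0.38 to 0.68, SE 0.0646, adjusted p = 0.00052), which is 1.44-fold. Keap1 (ENSMUSG00000003308, chr9:21229730-21239361), the adaptor that marks NRF2 for degradation, was at 43.1, 47.8 and 46.8 CPM in sg-con and at 49.4, 44.2 and 49.4 CPM in sg-kiaa1522. The groups overlapped, and the log2 fold change of 0.05 (95% interval -0.14 to 0.25, adjusted p = 0.62) has an upper bound of 1.19-fold. An antisense gene, Gm16754, shares 510 bases with the exons of Keap1, 10.9% of their length. The strand setting of the counting is not given in the sources used here, so reads of that stretch cannot be assigned to either gene.

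The ratio of Nfe2l2 to Keap1 within a library was computed from TPM, a level per transcript length (counts divided by the length of the merged exons in GENCODE M21, then scaled to 1 common sum per library). It was 2.78, 2.37 and 2.50 in sg-con and 3.21, 3.98 and 3.44 in sg-kiaa1522. The groups did not overlap. The log2 ratio was 1.35 ± 0.116 (SD, n = 3) in sg-con and 1.82 ± 0.159 (SD, n = 3) in sg-kiaa1522, a difference of 0.47 with an exact two-sided permutation p of 0.1, the smallest that 3 against 3 can give.

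Glutathione is made in 2 steps. Glutamate-cysteine ligase joins glutamate to cysteine and sets the rate; its catalytic subunit is encoded by Gclc and its modifier subunit, which lowers feedback inhibition, by Gclm. Glutathione synthetase (Gss) then adds glycine. Gclc (ENSMUSG00000032350, chr9:77754535-77794485) was at 69.0, 63.9 and 61.7 CPM in sg-con and at 100.2, 103 and 107 CPM in sg-kiaa1522. In the edgeR fit of all 6 libraries, Gclc had the highest fold change of the 9 tested genes. Its log2 fold change was 0.67 (95% interval 0.51 to 0.84, SE 0.0699, adjusted p = 0.00025), or 1.60-fold, and 7.94% of all tested genes had a higher one. Without replicate 3 of sg-con, Hmox1 (0.70) was above Gclc (0.64). Gclm (ENSMUSG00000028124, chr3:122245557-122270732) did not pass the test. It was at 40.3, 29.9 and 32.6 CPM in sg-con and at 34.3, 32.5 and 30.6 CPM in sg-kiaa1522, and the highest and the lowest values were both in sg-con. The log2 fold change was -0.08 (95% interval -0.37 to 0.21, adjusted p = 0.61), and without replicate 1 of sg-con it was 0.05 (adjusted p = 0.67). Gss (ENSMUSG00000027610, chr2:155563181-155592810) was at 26.4, 22.2 and 26.2 CPM in sg-con and at 23.7, 22.8 and 23.4 CPM in sg-kiaa1522. The groups overlapped, with a log2 fold change of -0.10 (95% interval -0.33 to 0.13, adjusted p = 0.43). Both genes share exon bases with other genes, Gclm 4.71% of its exon length with Gm17494 and 3.88% with the pseudogene Gm6061, and Gss 6.68% with Acss2, 6.51% with Gssos2 and 5.44% with Gssos1.

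The 2 subunit transcripts of glutamate-cysteine ligase were also compared within each library. The ratio of Gclc to Gclm in TPM was 2.86, 3.57 and 3.16 in sg-con and 4.88, 5.30 and 5.85 in sg-kiaa1522. The lowest ratio in sg-kiaa1522 was above the highest in sg-con. The log2 ratio was 1.67 ± 0.161 (SD, n = 3) against 2.41 ± 0.131 (SD, n = 3), a difference of 0.74 with an exact two-sided permutation p of 0.1.

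**Figure D2:**
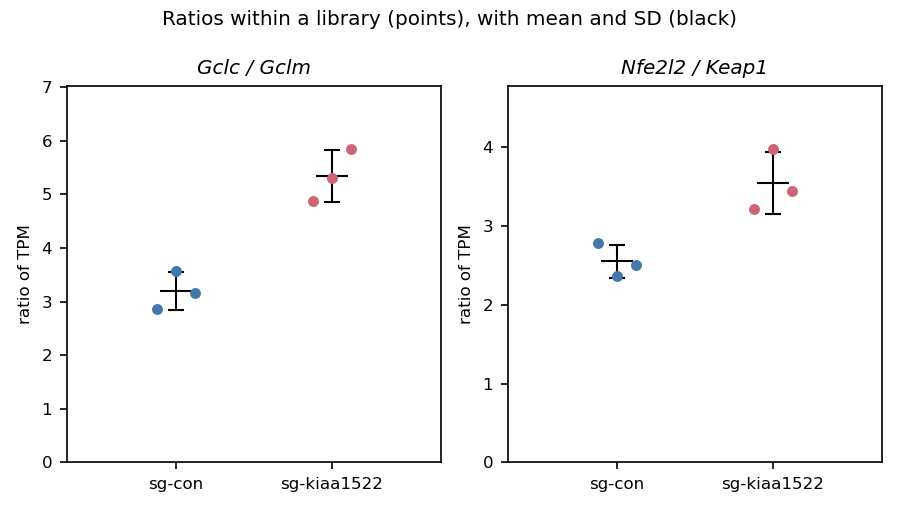
Ratio of TPM within each library (y axes, from 0) of Gclc to Gclm and of Nfe2l2 to Keap1, with mean and SD in black. The 3 sg-kiaa1522 libraries (red) lie at 4.88 to 5.85 and at 3.21 to 3.98, above the 3 sg-con libraries (blue) at 2.86 to 3.57 and 2.37 to 2.78.

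Of the 2 reductases, Txnrd1 rose and Gsr did not pass the test. Gsr encodes glutathione reductase, which returns oxidised glutathione to its reduced form with NADPH, and Txnrd1 encodes the cytosolic thioredoxin reductase, a selenoprotein that does the same for thioredoxin. Gsr (ENSMUSG00000031584, chr8:33652523-33698163) was at 76.4, 78.5 and 73.2 CPM in sg-con and at 65.8, 69.4 and 68.2 CPM in sg-kiaa1522. Every sg-kiaa1522 library was below every sg-con library, but the log2 fold change of -0.16 (95% interval -0.32 to -0.01, SE 0.0655) had an adjusted p of 0.068 in edgeR and was not called. In TPM the groups overlapped, with 73.0, 72.1 and 67.4 in sg-con and 65.1, 68.1 and 68.9 in sg-kiaa1522. Txnrd1 (ENSMUSG00000020250, chr10:82833951-82897712) was at 124, 118 and 110.3 CPM in sg-con and at 164, 163 and 175 CPM in sg-kiaa1522. The groups did not overlap, and it rose by a log2 fold change of 0.51 (95% interval 0.35 to 0.67, SE 0.0678, adjusted p = 0.00075), or 1.42-fold.

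Srxn1 encodes sulfiredoxin, which repairs peroxiredoxins that peroxide has over-oxidised. Srxn1 (ENSMUSG00000032802, chr2:152105516-152111376) was at 35.6, 37.0 and 41.5 CPM in sg-con and at 52.5, 45.6 and 46.9 CPM in sg-kiaa1522. The groups did not overlap, and the gap between the highest sg-con and the lowest sg-kiaa1522 library was small. The log2 fold change was 0.35 (95% interval 0.12 to 0.57, SE 0.0959, adjusted p = 0.018). The call was lost without replicate 2 of sg-con (adjusted p = 0.066) and without replicate 1 of sg-kiaa1522 (adjusted p = 0.058).

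Hmox1 encodes haem oxygenase 1, which breaks haem down to biliverdin, iron and carbon monoxide, and it is repressed by BACH1 as well as induced by NRF2. Hmox1 (ENSMUSG00000005413, chr8:75093621-75100589) was at 31.1, 33.8 and 37.7 CPM in sg-con and at 54.8, 51.9 and 52.4 CPM in sg-kiaa1522. The groups were well apart, with a log2 fold change of 0.63 (95% interval 0.42 to 0.85, SE 0.0924, adjusted p = 0.0011), or 1.55-fold. Nqo1 (ENSMUSG00000003849, chr8:107388225-107403206), the quinone reductase widely used as a readout of NRF2, was nearly absent from all libraries. It had 1, 4 and 1 counts in sg-con and 0, 2 and 3 counts in sg-kiaa1522, 11 counts in all. Over the group this is 0.114 CPM (with no TMM scaling) in sg-con (exact Poisson 95% interval 0.0418 to 0.248) and 0.104 in sg-kiaa1522 (0.0339 to 0.243), intervals that cover counting error only. Nqo1 did not pass the filter on counts and was not tested. With 5 of the 6 libraries at or under 3 counts, a change within these intervals was not detectable at this depth.

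**Figure D3:**
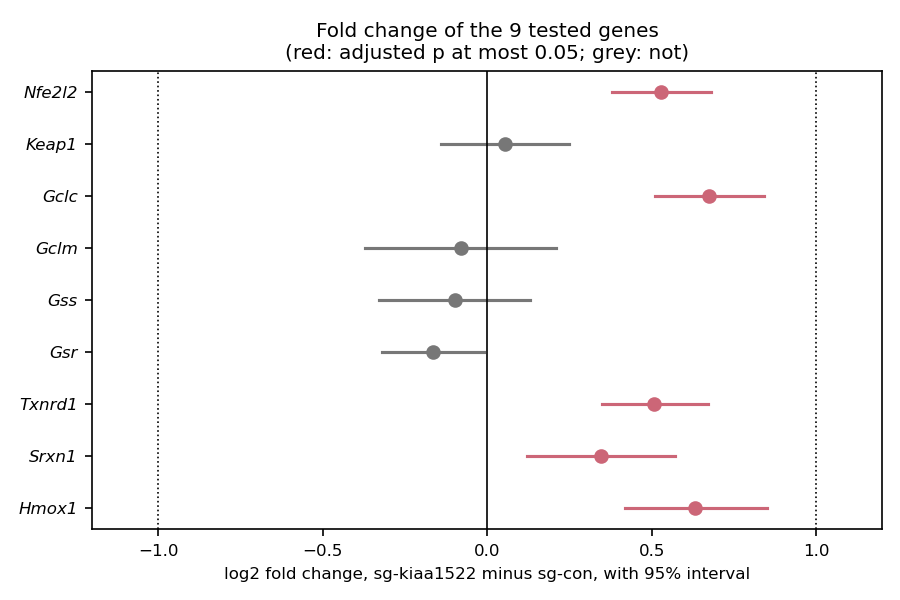
Log2 fold change of the 9 tested genes (x axis, sg-kiaa1522 minus sg-con, edgeR) with 95% intervals, red where the adjusted p was at most 0.05. Nfe2l2, Gclc, Txnrd1, Srxn1 and Hmox1 lie between 0.35 and 0.67, the other 4 lie between -0.16 and 0.05, and no gene reaches the dotted lines at 1 and -1.

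The levels of the genes were compared with each other per length, in TPM. In sg-con the order of the group means was Gsr at 70.8, Nfe2l2 at 63.8, Hmox1 at 50.1, Gclc at 44.2, Txnrd1 at 42.6, Srxn1 at 34.5, Keap1 at 25.1, Gclm at 14.0, Gss at 10.8 and Nqo1 at 0.182 TPM. The libraries of Hmox1 and Gclc overlapped, as did those of Gclc and Txnrd1, and the other neighbours did not. In sg-kiaa1522 Nfe2l2 was first at 98.1, followed by Hmox1 at 82.8, Gclc at 75.2, Gsr at 67.4, Txnrd1 at 64.6 and Srxn1 at 46.9 TPM, and the only overlapping neighbours were Gsr and Txnrd1. Gsr thus went from the first to the fourth place, while Keap1, Gclm, Gss and Nqo1 held the last 4 places in both groups, with Keap1 at 27.8, Gclm at 14.1, Gss at 10.8 and Nqo1 at 0.169 TPM in sg-kiaa1522. The merged exons of a gene with several transcripts, which all of the genes but Nqo1 have, can be longer than any 1 of them. Those of Gclm, Gss, Txnrd1 and Keap1 span 6291, 5915, 7086 and 4693 bases, so their TPM may be too low against the others. The size of the TPM ratios above carries the same limit.

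**Figure D4:**
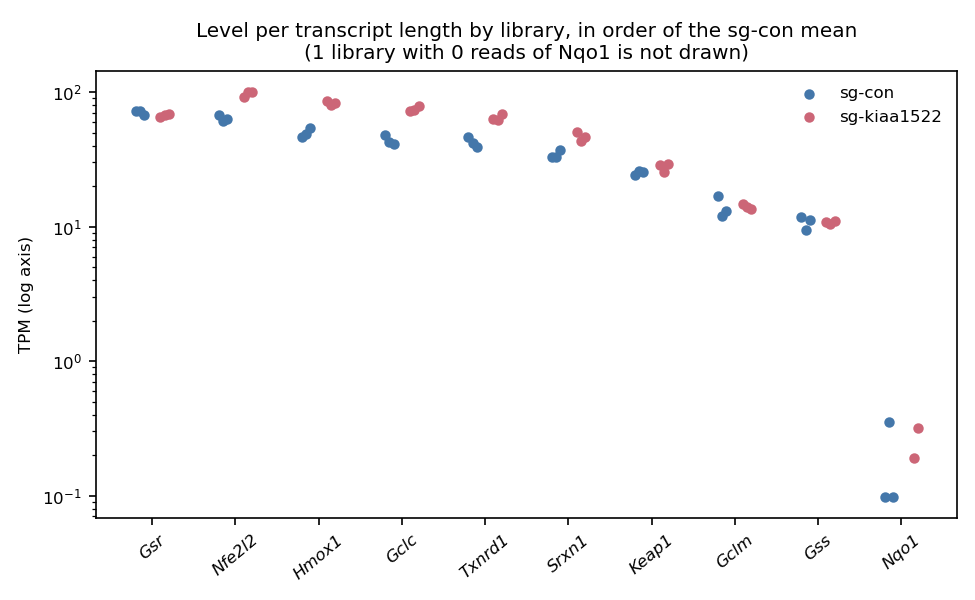
TPM of the 10 genes (log axis) in the 3 sg-con (blue) and 3 sg-kiaa1522 (red) libraries, in the order of the sg-con mean. Means in sg-con run from 70.8 for Gsr to 10.8 for Gss, and Nqo1 lies far below at 0.182, where 1 library with 0 counts is not drawn.

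The other genes of the pathway were read from 7 lists, given as counts and medians beside the same for all tested genes (52.5% called in either direction, median log2 fold change -0.0067). The supply of glutathione precursors, cysteine, glutamate and glycine, rose in more of its genes than it fell. Of 13 tested genes, 7 were higher and 2 lower, with a median log2 fold change of 0.49. The lower count was 1 without replicate 2 of sg-con, and likewise without replicate 2 or replicate 3 of sg-kiaa1522. Slc7a11, the cystine importer and an NRF2 and ATF4 target, was at 28.0, 28.1 and 33.3 CPM in sg-con and at 72.3, 76.9 and 83.6 CPM in sg-kiaa1522, which is the largest rise of the list (log2 fold change 1.38, SE 0.102, adjusted p = 7.4e-05). Slc6a9, a glycine transporter, rose by 1.11 (adjusted p = 0.00037), although 27.8% of its exon length is shared with the gene Ccdc24 on the other strand. Among the remaining called genes with the smallest adjusted p, Slc1a4 (a transporter of small neutral amino acids, 0.60), Mthfd2 (a mitochondrial folate enzyme, 0.74) and Cth (which makes cysteine from cystathionine, 0.74) rose, and Shmt1 (the cytosolic serine hydroxymethyltransferase, -0.60) fell.

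Genes that use or recycle glutathione moved both ways, with 8 higher and 12 lower of 27 tested and a median of -0.07. Past a log2 fold change of 1 in size, Gstm2 (1.34), Gsto2 (1.25) and Chac1 (1.34) rose, and Mgst1 (-1.35) and Mgst3 (-1.68) fell. Mgst1 and Mgst3 are microsomal enzymes of the glutathione transferase group, while Chac1 cleaves glutathione in the cytosol. Mgst3 was at 171, 171 and 227 CPM in sg-con and at 66.4, 59.0 and 52.2 CPM in sg-kiaa1522. Chac1 was at 27.8, 32.4 and 42.6 CPM in sg-con and at 92.8, 83.5 and 84.6 CPM in sg-kiaa1522. The groups did not overlap for either gene. Of the other transferases with the smallest adjusted p, Gstm1 (0.84) and Gsto1 (0.85) rose and Gsta4 (-0.96) fell, and the endoplasmic reticulum peroxidase gene Gpx8 (-0.91) fell. Gstm1 and Gstm2 belong to a family of near copies, so the split of reads between its members is uncertain.

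The list of the thioredoxin and peroxiredoxin system leaves out Txnrd1 and Srxn1, which both rose. Its genes fell more often than they rose, with 3 higher and 10 lower of 20 tested and a median of -0.25. The lower count was 7 without replicate 3 of sg-kiaa1522 and 12 without replicate 1 of sg-con. Txnip, the thioredoxin inhibitor that also responds to glucose, was at 767, 514 and 367 CPM in sg-con and at 158, 179.9 and 172 CPM in sg-kiaa1522. The sg-con libraries were widely spread yet all above the others (log2 fold change -1.69, SE 0.24, adjusted p = 0.00098), and 19.4% of the Txnip exon length is shared with the antisense gene Gm15441. Sesn2 (0.93), a stress-induced sestrin, and Txnrd3 (0.41), a thioredoxin reductase best known from testis, rose, while Sesn1 (-0.80), a p53-induced sestrin, and Msrb1 (-0.78), a methionine sulfoxide reductase, fell. The list for NADPH, on which both reductases run, holds enzymes that make it and others of the pathways around them, and was higher in 2 and lower in 6 of 13 tested, with a median of -0.22 and none past 1 in size. The higher count was 1 without replicate 2 or replicate 3 of sg-con, and without replicate 2 of sg-kiaa1522. The lower count was 4 without replicate 1 or replicate 2 of sg-kiaa1522. Me2 (mitochondrial malic enzyme, -0.98), Idh1 (cytosolic isocitrate dehydrogenase, -0.66), Tkt (transketolase, -0.64) and Pgls (6-phosphogluconolactonase, -0.46) fell, and Pgls shares 20.6% of its exon length with Fam129c on the same strand. Tkt and Pgls belong to the pentose phosphate pathway but make no NADPH themselves, and Me2 works mainly with NAD. The genes of the 2 pentose phosphate enzymes that do make it, named after their values were seen, were at 0.03 (G6pdx, adjusted p = 0.71, not called) and 0.28 (Pgd, adjusted p = 0.012, higher).

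Other genes known as NRF2 targets did not move in 1 direction, with 11 higher and 10 lower of 31 tested and a median of 0.03. The higher count was 7 without replicate 1 or without replicate 3 of sg-kiaa1522. The lower count was also 7 without replicate 3 of sg-kiaa1522, and likewise without replicate 2 of either group. The genes past 1 in size were Epas1 (2.66), the multidrug exporter gene Abcc4 (1.25) and Osgin1 (1.06), which rose, and Aldh3a1 (-1.33), Ptgr1 (-1.24) and Abcc3 (-1.12), which fell. Epas1, which encodes the hypoxia factor HIF-2alpha, was at 3.10, 1.94 and 1.74 CPM in sg-con and at 12.7, 16.3 and 14.0 CPM in sg-kiaa1522. The aldehyde dehydrogenase gene Aldh3a1 was at 85.7, 104 and 107 CPM in sg-con and at 42.3, 40.2 and 35.8 CPM in sg-kiaa1522. Neither gene's groups overlapped, and the directions were opposite. Of the rest with the smallest adjusted p, Abcc1 (0.54), which exports glutathione conjugates, rose, and Pir (-0.79), Blvra (biliverdin reductase A, -0.84) and Adh7 (-0.67) fell.

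Genes that control NRF2 were higher in 11 and lower in 6 of 32 tested, with a median of 0.09 and none past 1 in size. The lower count was 3 without replicate 2 or without replicate 3 of sg-kiaa1522. The small MAF partners Mafg (0.66, SE 0.0606, adjusted p = 0.00015) and Maff (0.59, SE 0.0712, adjusted p = 0.00051) rose, as did the repressor gene Bach1 (0.65, adjusted p = 0.0037). Another small MAF gene, Mafk, was at 0.08 and was not called (edgeR adjusted p = 0.36). Mafg was at 83.3, 81.5 and 82.2 CPM in sg-con and at 133, 124 and 134 CPM in sg-kiaa1522, without overlap. The COP9 signalosome subunit gene Cops5 (-0.84) and the deubiquitinase gene Usp11 (-0.77) fell. The list of superoxide and peroxide enzymes had 1 higher and 9 lower of 13 tested, with a median of -0.39. The list is wider than its name, so the 9 are not a count of enzymes that remove superoxide or peroxide. Among the 9, Sod1 and Cat encode such enzymes, Cyba and Noxo1 encode subunits of oxidases that make superoxide, and Ucp2 encodes a carrier. The rest of the 9 were not sorted by such a role. Of the superoxide dismutases, Sod1 was lower (-0.31), and Sod2 was at 0.09 and was not called. Noxo1 fell by 1.22 on the log2 scale, but 70.4% of its exon length is shared with Tbl3 on the other strand, so the gene behind this value is uncertain. Catalase (Cat, -0.68), the mitochondrial carrier gene Ucp2 (-0.94), the selenoprotein gene Selenok (-0.65) and Park7 (-0.82) fell. Catalase was at 90.0, 84.0 and 82.6 CPM in sg-con and at 53.3, 52.2 and 54.3 CPM in sg-kiaa1522. Its libraries agreed closely within each group and did not overlap between them.

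**Figure D5:**
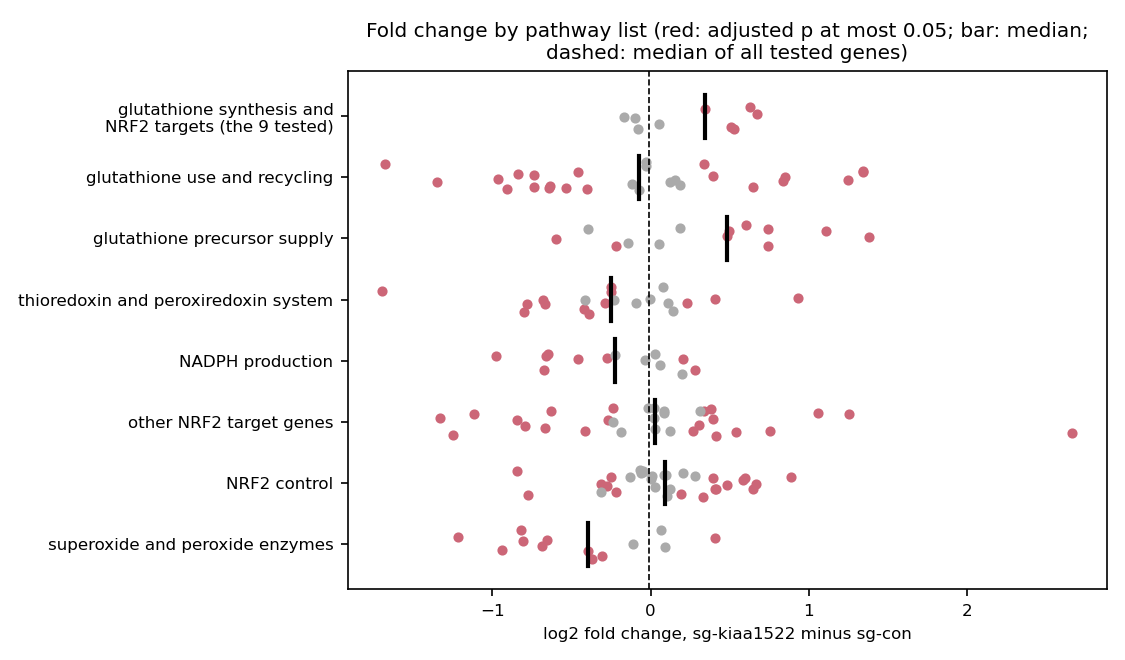
Log2 fold change (x axis, sg-kiaa1522 minus sg-con, edgeR) of each tested gene in the 10-gene set and in the 7 pathway lists, red where the adjusted p was at most 0.05, with the list median as a black bar and the median of all tested genes dashed. The medians run from -0.39 for superoxide and peroxide enzymes to 0.49 for precursor supply, and every list but the 10-gene set holds called genes on both sides of 0.

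The chromosomes on which the genes lie had median log2 fold changes of 0.14 for chromosome 2 (800 tested genes), -0.12 for chromosome 3 (482), 0.09 for chromosome 8 (563), 0.03 for chromosome 9 (550) and -0.19 for chromosome 10 (484). With its chromosome's median subtracted, the log2 fold change of Nfe2l2 was 0.39, that of Srxn1 0.20 and that of Txnrd1 0.70. On this scale Gclc was at 0.65 and Hmox1 at 0.54, which is under the 1.5-fold limit, while the value of Txnrd1 above is past it. The value of Gsr was -0.25, that of Gss -0.24 and that of Gclm 0.04. The part of these chromosome-wide shifts in the results was not tested.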

How the data were processed

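Total RNA of 6 libraries was sequenced. Per the labels and the study's methods, the authors trimmed reads, removed rRNA, mapped them to GRCm38 and deposited raw counts of uniquely mapped fragments per gene. The submitters' processing notes name HISAT2 2.0.4 and StringTie 1.3.0; the annotation release is not given in the sources used here. Genes with over 500 counts in total (10046, holding 99.48% to 99.55% of the counts) were tested with edgeR 4.0.16 (R 4.3.3) by the quasi-likelihood F test with TMM and Benjamini-Hochberg adjustment over all of them. SE is the log2 fold change divided by the root of F, and 95% intervals use the test's degrees of freedom. TPM used GENCODE M21 merged exon lengths. The floor of 3 counts is 0.162 to 0.247 CPM. No 2 libraries of a group agreed within sampling noise (chi-square per degree of freedom at least 12.3). The code was tested on simulated data. DESeq2 1.42.0 and other settings were alternatives. In the text were named the 10 genes, C77080, and of each pathway list the called genes past a log2 fold change of 1 in size and up to 4 others with the smallest adjusted p. G6pdx, Pgd, Sod1, Sod2, Cyba, Bach1, Mafk and Nfe2l1, outside this rule, were named after their values were seen. Of 39 names written for NRF2 control, 36 had a row. Esd and Sqstm1 stand in 2 lists each. The genes and lists were chosen with earlier results of these data known.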

Additional observations from a re-analysis of the deposited data

How the results depend on the processing

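The log2 fold changes of Nfe2l2, Gclc, Txnrd1 and Hmox1 kept their direction and stayed at an adjusted p of at most 0.05 in all 13 alternative fits. Srxn1 passed in 10 of 13, with adjusted p of 0.0075 to 0.066. Gsr passed in 1, with library size alone (-0.18, adjusted p = 0.048, range 0.048 to 0.21), which moved the count of lower genes from 0 to 1. Gclm spanned -0.17 to 0.05 over the fits on 5 libraries and turned to 0.05 without replicate 1 of sg-con and to 0.04 with the chromosome median subtracted. At a limit of 1.5-fold, 2 genes passed, Gclc and Hmox1, and Hmox1 was under it without replicate 1 of sg-con (0.56). Samples of the same replicate number did not deviate together (correlations -0.214, -0.0508 and -0.165), so the numbers were not taken to pair the samples. With a replicate block, Srxn1 kept 0.35 with an adjusted p of 0.058, and the counts fell to 1 for lower precursor supply, 1 for higher NADPH production and 3 for lower NRF2 control genes; the cause was not tested. Leaving out each library in turn gave 4 to 5 higher genes and 1 to 3 lower precursor supply genes. It gave 1 to 2 higher and 4 to 6 lower NADPH genes, and 7 to 12 lower thioredoxin and peroxiredoxin genes. The NRF2 targets ran from 7 to 10 higher and from 7 to 11 lower, and 3 to 6 NRF2 control genes were lower. C77080 ranged from 0.70 to 0.75, the difference between groups in the log2 ratio of Gclc to Gclm from 0.67 to 0.83, and that of Nfe2l2 to Keap1 from 0.38 to 0.54. Nqo1 lies under what this depth can resolve.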

Other observations

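Nfe2l1, a relative of Nfe2l2 that drives proteasome genes, was singled out after its values were seen. Its level split within both groups: 93.9, 93.7 and 411 CPM in sg-con and 123, 429 and 99.8 CPM in sg-kiaa1522. These are 6858 counts in replicate 3 of sg-con and 7873 in replicate 2 of sg-kiaa1522, against 1490 to 1737 in the other libraries. The log2 fold change was 0.13 (SE 0.733, edgeR adjusted p = 0.9). For the 9 tested genes of the report, the highest library of a group was at most 1.35 times the lowest.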
